A study of Arabidopsis thaliana with 9 samples.

Results

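SWEET genes encode sugar transporters of plant membranes, and 10 of them were described across 9 messenger RNA libraries of Arabidopsis thaliana callus, the unorganised tissue that plant pieces form on hormone medium. The 10 genes are SWEET1, SWEET2, SWEET4, SWEET10, SWEET11, SWEET12, SWEET13, SWEET15, SWEET16 and SWEET17, out of 17 SWEET genes and 32833 genes in the deposited tables. They were chosen from earlier results of these same data, in which the low level of SWEET11 in the pnet1 mutant had been seen. The values of SWEET11 in the mutant are therefore given as a description with no test. Whether the mutant values of the other 9 genes were also used in the choice is not known, so their p-values in comparisons with the mutant describe these libraries and are no independent evidence, and nothing is read from the number of SWEET genes that fell. How these 10 were taken from the 17 is not recorded, and level alone does not separate them, since SWEET10 had 1 count over the 9 libraries while SWEET5 and SWEET7, which are not among the 10, had 14 and 13.

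All libraries came from ecotype Col-0. Pieces of hypocotyl from seedlings raised in the dark spent 4 days on callus induction medium (CIM) and 10 days on shoot induction medium (SIM), with no other treatment, and 3 libraries each were made from wild type, from a line given as pnet1 knockout and from a line given as PNET1 overexpression. The sources used here do not give plant age, the pnet1 allele, the promoter behind the overexpression or the number of independent lines. Nothing says that the 3 libraries of a genotype came from separate cultures, so the spread that the p-values rest on may be technical.

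Counts per library lay between 16890848 and 19493969. PNET1, which sits in the nuclear membrane of plant cells, was read at locus AT1G07970 and stood at 28.9 to 32.68 CPM, the count per unit of library size, in wild type, 1.121 to 1.539 in mutant and 4588 to 5211 in overexpression libraries, so the libraries follow their labels. On the first principal component of the 19698 genes with enough counts to test, which held 67.7% of the variance, wild-type replicate 3 and overexpression replicate 1 lay nearest to the mutant within their genotypes. The tissue is labelled only as callus, which has no single defining marker. Of 10 genes of photosynthetic leaf tissue fixed as markers 9 were detected well enough to test, and all 15 markers of sieve elements and companion cells, the conducting cells of the phloem, were too. In bulk RNA, fewer cells of a type and less RNA per cell cannot be told apart, which holds for every level below.

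SWEET proteins let sugars pass along their concentration gradient, without using the proton gradient that drives the SUC and STP symporters. They sit in the plasma membrane or in the tonoplast, the membrane of the vacuole, and plants use them to release sugar from cells, to load the phloem, to feed seeds and nectaries and to move sugar in and out of the vacuole. SWEET11 and SWEET12 export sucrose from phloem parenchyma cells of leaves so that the phloem can be loaded. SWEET1 carries glucose across the plasma membrane. SWEET2, SWEET16 and SWEET17 belong to the tonoplast, where SWEET2 holds sugar in root cells, SWEET16 carries several sugars and SWEET17 carries fructose. SWEET15, also called SAG29, is known from senescing leaves and, with SWEET11 and SWEET12, from seed filling. SWEET4, SWEET10 and SWEET13 are also plasma membrane carriers; SWEET10 is known from the shoot apex at the change to flowering.

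All 10 genes lie on the minus strand and have 6 exons in the reference annotation. SWEET11 (AT3G48740) spans chr3:18052466-18054832 and SWEET12 (AT5G23660) spans chr5:7971647-7973995. The coding sequences of this pair are 80.4% identical, the highest identity of any pair among the genes that could be tested, and they share no run longer than 29 bases, so no word of 50 bases is common to both transcripts. The pair is shown over the first 120 bases of the coding sequence, where the 16 differing bases are in capitals, because their counts rest on telling the copies apart.

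SWEET11: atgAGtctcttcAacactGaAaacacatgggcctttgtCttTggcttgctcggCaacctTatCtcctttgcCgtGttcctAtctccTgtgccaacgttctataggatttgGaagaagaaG

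SWEET12: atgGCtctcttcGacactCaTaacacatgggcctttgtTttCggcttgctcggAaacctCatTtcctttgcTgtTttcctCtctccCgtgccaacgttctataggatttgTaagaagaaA

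SWEET1 (AT1G21460) spans chr1:7511750-7513481, SWEET2 (AT3G14770) spans chr3:4957334-4959704, SWEET16 (AT3G16690) spans chr3:5684317-5686544 and SWEET17 (AT4G15920) spans chr4:9030486-9033648. SWEET10 (AT5G50790) and SWEET13 (AT5G50800) are neighbours on chromosome 5, with 7066 bases between them. Positions are those of TAIR10, and the RefSeq annotation used for sequence gave the same start and end for 32532 of the 32548 genes shared with the deposited table and for all 17 SWEET genes. Protein lengths in the reference ran from 236 residues in SWEET2 to 294 in SWEET13. SWEET16 and SWEET17 were 64.4% identical in coding bases, and no pair among the 10 shared a word of 50 bases.

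The 250 bases before the annotated start are shown for the 4 genes that fell in the mutant and for SWEET11, on the minus strand and 5′ to 3′, with motif matches in capitals.

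SWEET1, chr1:7513482-7513731: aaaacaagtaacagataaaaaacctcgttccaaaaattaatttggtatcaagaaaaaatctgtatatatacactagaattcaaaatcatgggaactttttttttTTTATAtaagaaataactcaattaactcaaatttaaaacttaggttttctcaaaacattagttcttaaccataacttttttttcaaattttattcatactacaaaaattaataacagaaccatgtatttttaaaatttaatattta

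SWEET2, chr3:4959705-4959954: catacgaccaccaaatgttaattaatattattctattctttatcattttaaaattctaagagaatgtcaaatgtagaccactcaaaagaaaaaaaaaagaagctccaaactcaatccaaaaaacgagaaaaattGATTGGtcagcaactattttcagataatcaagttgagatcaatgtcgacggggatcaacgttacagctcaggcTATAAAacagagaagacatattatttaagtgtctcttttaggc

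SWEET11, chr3:18054833-18055082: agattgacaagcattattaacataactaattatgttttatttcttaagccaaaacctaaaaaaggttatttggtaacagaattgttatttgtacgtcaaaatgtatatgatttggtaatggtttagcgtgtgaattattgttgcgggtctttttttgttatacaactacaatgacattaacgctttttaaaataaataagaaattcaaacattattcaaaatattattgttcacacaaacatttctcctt

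SWEET12, chr5:7973996-7974245: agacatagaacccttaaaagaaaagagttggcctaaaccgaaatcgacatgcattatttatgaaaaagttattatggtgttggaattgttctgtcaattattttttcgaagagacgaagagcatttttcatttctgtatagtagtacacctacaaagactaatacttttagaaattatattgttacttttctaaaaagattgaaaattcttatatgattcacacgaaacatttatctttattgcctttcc

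SWEET16, chr3:5686545-5686794: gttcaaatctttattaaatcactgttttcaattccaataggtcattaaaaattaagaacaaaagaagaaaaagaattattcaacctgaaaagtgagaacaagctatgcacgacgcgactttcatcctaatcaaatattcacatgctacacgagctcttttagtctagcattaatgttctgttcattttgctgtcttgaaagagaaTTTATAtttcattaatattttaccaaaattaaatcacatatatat

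Motifs were searched on both strands by their exact letters. The TATA box TATAAA lay in this window in 6 of the 10 genes, against 47.4% of 27419 protein-coding genes, and the windows of SWEET4, SWEET11, SWEET12 and SWEET15 held none. The G-box CACGTG lay in SWEET4 alone, against 6.5% of all windows, and CCAATC in SWEET2 and SWEET17, against 10.2%. The evening element AAATATCT lay in SWEET13, against 4.8%. The 4 others searched were in no window of the 10 genes: GATAAG is in 12.3% of all windows, TTGACC in 12.2%, AATAGAAAA in 2.6% and GNATATNC in 5.5%. In SWEET17 a pair of TATAAA matches on opposite strands overlap. A match describes letters only, and a missing match says only that these letters are not in the window.

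Levels between genes were compared in FPKM, the authors' count per kilobase of gene length and library size. SWEET17, the fructose carrier of the tonoplast, was the highest SWEET gene in each genotype, at 38.1 ± 2.99 FPKM in wild type, 39.0 ± 1.63 in the mutant and 37.2 ± 2.5 with PNET1 overexpressed (SD, n = 3 each). SWEET1 came second, at 12.5 ± 2.36, 4.49 ± 0.907 and 18.3 ± 3.96 FPKM in the same order. Neither gene's libraries overlapped the next gene's in any genotype. In wild type SWEET16 followed at 2.01 ± 0.359 FPKM, then SWEET11 at 1.71 ± 0.269, SWEET2 at 1.38 ± 0.203 and SWEET12 at 1.37 ± 0.176. Each of these 4 overlapped its neighbour in that order, so their order in wild type is not resolved. The other 4 of the 10 genes stood at 0.16 FPKM or below in wild type.

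Below SWEET1 in the mutant, SWEET16 stood at 1.15 ± 0.115 FPKM, SWEET12 at 0.544 ± 0.207, SWEET2 at 0.496 ± 0.342 and SWEET11, last of the 6 by its mean, at 0.177 ± 0.203. SWEET16 did not overlap SWEET12 there, while SWEET12, SWEET2 and SWEET11 overlapped in turn, so the order of these last genes is not resolved in the mutant either. In the overexpression line SWEET16 stood at 2.56 ± 0.38 FPKM, SWEET11 at 2.47 ± 1.11, SWEET12 at 2.39 ± 0.719 and SWEET2 at 1.52 ± 0.296, again with overlap from each to the next. Among the 25597 genes with a count in any library, SWEET17 lay at percentile 87.8 of wild-type FPKM, SWEET1 at 65.3 and SWEET11 at 33.

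Summed over all 17 SWEET genes, FPKM was 57.68 ± 3.19 in wild type, 46.23 ± 2.43 in the mutant and 64.88 ± 5.13 with PNET1 overexpressed (SD, n = 3 each). The mutant mean was thus lower than wild type by 19.8%. SWEET1 made up 69.6% of that difference and SWEET11, whose low level in the mutant was known beforehand, 13.4%. SWEET2, SWEET16 and SWEET12 made up 7.7%, 7.5% and 7.2%. SWEET17, higher by 0.88 FPKM in the mutant, went the other way and counts as -7.7%. SWEET17 held 66.1 ± 4.2% of the family's FPKM in wild type, 84.4 ± 2.12% in mutant and 57.7 ± 7.13% in overexpression libraries. Its own FPKM stayed close, so this share moved with the other genes. The share of SWEET1 was 21.6 ± 3.79%, 9.7 ± 1.89% and 28 ± 4.4% in the same order.

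**Figure D1:**
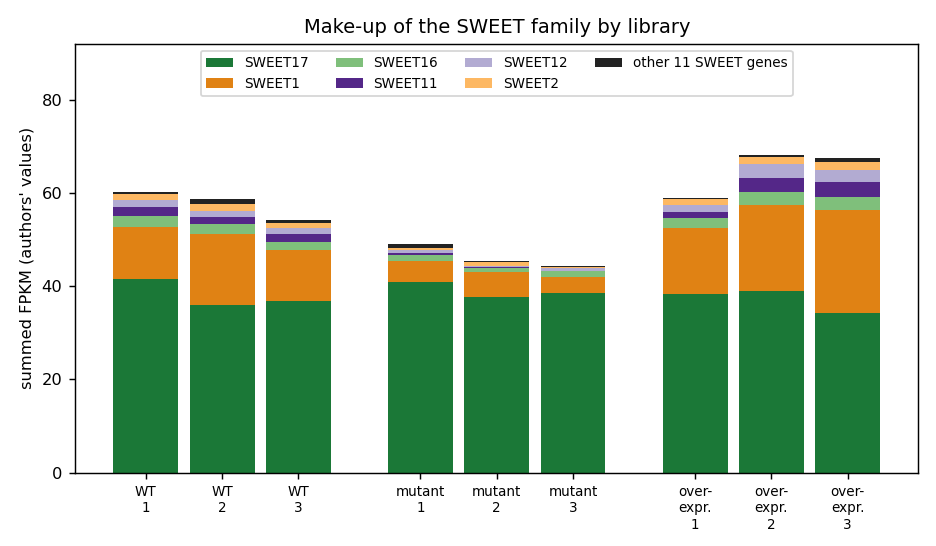
Summed FPKM of the SWEET family in each library, stacked by gene, with the 3 libraries of wild type (WT), pnet1 mutant and PNET1 overexpression side by side. The SWEET17 segment is of similar height in the 9 bars, and the SWEET1 segment is smallest in the 3 mutant bars.

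For the comparison of genotypes, CPM with TMM scaling was used, which compares 1 gene across libraries. Of the 10 genes 6 had enough counts to be tested, and SWEET11, SWEET2 and SWEET12, each with a mutant library under 10 counts, passed the filter through the other genotypes. Each test was a contrast in an edgeR quasi-likelihood fit over all 9 libraries and 19698 genes, with Benjamini-Hochberg adjustment over those genes, and a gene was called at an adjusted p under 0.05. Of all tested genes 17.4% were called lower and 12.6% higher in the mutant than in wild type. Of the 5 tested SWEET genes other than SWEET11, SWEET1, SWEET2, SWEET12 and SWEET16 were called lower in the mutant and SWEET17 was not called; nothing is read from this count against the share of all genes, given the choice of the genes and the filter.

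SWEET1 stood at 14.83, 20.04 and 14.4 CPM in wild type, at 6.101, 6.964 and 4.612 in mutant and at 18.67, 24.25 and 28.72 in overexpression libraries. Each mutant library was below each wild-type library, and the highest wild-type library was above the lowest overexpression library. SWEET1 fell by 1.48 on the log2 scale in the mutant (SE 0.226, 95% interval -1.99 to -0.964, edgeR adjusted p = 0.00119). A gene on the opposite strand, SCL1, overlaps SWEET1 by 52 bases and the strand setting of the counting is not given; SCL1 differed by 0.10 on the same scale (edgeR adjusted p = 0.233).

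SWEET2, which keeps sugar in the vacuole of root cells, stood at 2.23, 2.692 and 2.019 CPM in wild type, at 0.7982, 1.416 and 0.2745 in mutant and at 1.995, 2.688 and 2.91 in overexpression libraries. The mutant libraries were all below wild type but lay far apart from each other, with replicate 3 lowest. SWEET2 fell by 1.49 on the log2 scale in the mutant (SE 0.361, 95% interval -2.25 to -0.72, edgeR adjusted p = 0.00495), with the limit that it entered the test through the genotypes in which it is high. Without mutant replicate 3 the value was -1.06 and without replicate 2 it was -2.10.

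SWEET11 stood at 2.697, 1.974 and 2.497 CPM in wild type, at 0.5701, 0.05901 and 0.1098 in mutant and at 1.662, 4.233 and 4.365 in overexpression libraries. In counts these were 52, 33 and 47 in wild type, 10, 1 and 2 in mutant and 30, 74 and 81 in overexpression libraries. Mutant replicate 1 held most of the mutant's counts, and overexpression replicate 1 lay below each wild-type library. As a description, the fitted difference between mutant and wild type was -3.25 on the log2 scale, which is 9.49-fold lower. It was -4.70 without mutant replicate 1 and -2.81 without mutant replicate 2, so its size depends on a few counts.

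SWEET12, the partner of SWEET11 in phloem loading, stood at 2.127, 1.735 and 1.7 CPM in wild type, at 0.9122, 0.4131 and 0.8784 in mutant and at 2.161, 4.004 and 3.503 in overexpression libraries. The 3 genotypes did not overlap in any library, although overexpression replicate 1 lay close to wild-type replicate 1. SWEET12 fell by 1.32 on the log2 scale in the mutant (SE 0.331, 95% interval -2.018 to -0.627, edgeR adjusted p = 0.00525), with the same limit as SWEET2. Whether SWEET11 and SWEET12 differed in how far they were lower was not tested.

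SWEET16, the carrier of several sugars in the tonoplast, stood at 3.475, 3.47 and 2.497 CPM in wild type, at 1.881, 1.593 and 1.922 in mutant and at 3.325, 4.233 and 4.365 in overexpression libraries. The mutant libraries were close to each other and all below wild type. SWEET16 fell by 0.80 on the log2 scale in the mutant (SE 0.214, 95% interval -1.25 to -0.351, edgeR adjusted p = 0.00808).

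SWEET17 stood at 53.84, 46.73 and 47.81 CPM in wild type, at 52.68, 48.69 and 49.74 in mutant and at 49.87, 49.99 and 44.03 in overexpression libraries. The 3 genotypes overlapped. In the mutant the log2 difference from wild type was 0.03 (SE 0.0649, 95% interval -0.111 to 0.162, edgeR adjusted p = 0.813). The sign of this small value is not fixed, as it was -0.0125 without wild-type replicate 2. SWEET17 is the only tested SWEET gene whose intervals covered 0 in all 3 comparisons.

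**Figure D2:**
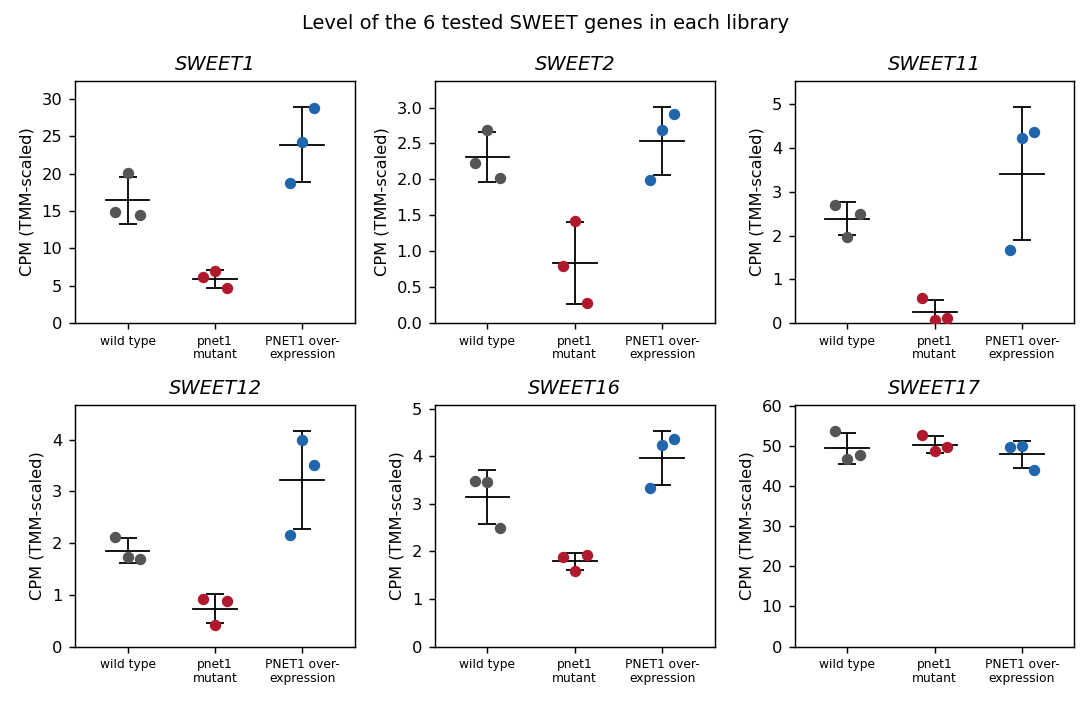
TMM-scaled CPM of the 6 tested SWEET genes, 1 point per library, with the mean (wide line) and SD (error bar) of each genotype, n = 3. The mutant points of SWEET1, SWEET2, SWEET11, SWEET12 and SWEET16 lie below all wild-type points, and those of SWEET17 lie among them.

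Of all tested genes 5.24% were called lower and 5.97% higher in the overexpression line than in wild type. None of the 6 tested SWEET genes was called by edgeR, so 0 of 6; 2 had an unadjusted p under 0.05, SWEET1 and SWEET12. DESeq2 called 1, SWEET1, and limma-voom called 0. SWEET12 had a log2 difference of 0.79 (SE 0.261, 95% interval 0.243 to 1.339, edgeR adjusted p = 0.0586) and SWEET1 one of 0.55 (SE 0.188, 95% interval 0.12 to 0.974, edgeR adjusted p = 0.103). The differences were 0.51 for SWEET11 (95% interval -0.322 to 1.341), 0.34 for SWEET16 (-0.061 to 0.738), 0.14 for SWEET2 (-0.499 to 0.769) and -0.05 for SWEET17 (-0.183 to 0.091).

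Overexpression replicate 1 was the lowest of its 3 libraries for SWEET1, SWEET2, SWEET11, SWEET12 and SWEET16, and it is also the overexpression library nearest to the mutant on the first principal component of the tested genes. Without it 3 SWEET genes were called higher by edgeR: SWEET1 at 0.72 (adjusted p = 0.00878), SWEET12 at 1.03 (adjusted p = 0.00789) and SWEET11 at 0.86 (adjusted p = 0.041). Leaving out wild-type replicate 2 gave 1 call, SWEET1 at 0.71 (edgeR adjusted p = 0.0462). Over the alternatives, 737 to 3125 of all genes were called in either direction in this comparison. Nothing is read from the number of SWEET genes called in any of them. PNET1 itself stood at 4588 CPM in overexpression replicate 1 against 4909 and 5211 in the others, and what sets that library apart was not tested.

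The overexpression line was also set against the mutant; this comparison shares its libraries with both others, so it is given side by side with them and not as separate evidence. Of all tested genes 20.6% were called lower and 23.0% higher in the overexpression line than in the mutant. Of the 5 tested SWEET genes other than SWEET11, 4 were called higher and 0 lower, and nothing is read from that count. SWEET2 and SWEET12 again entered the test through the genotypes in which they are high, so their p-values carry the limit given above. As log2 changes, SWEET12 rose by 2.11 (SE 0.307, edgeR adjusted p = 2.11e-05), SWEET1 by 2.02 (SE 0.218, edgeR adjusted p = 6.24e-05), SWEET2 by 1.62 (SE 0.357, edgeR adjusted p = 0.00139) and SWEET16 by 1.14 (SE 0.208, edgeR adjusted p = 0.000207). SWEET17 differed by -0.07 (SE 0.0651, edgeR adjusted p = 0.408), and SWEET11, as a description, by 3.76.

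**Figure D3:**
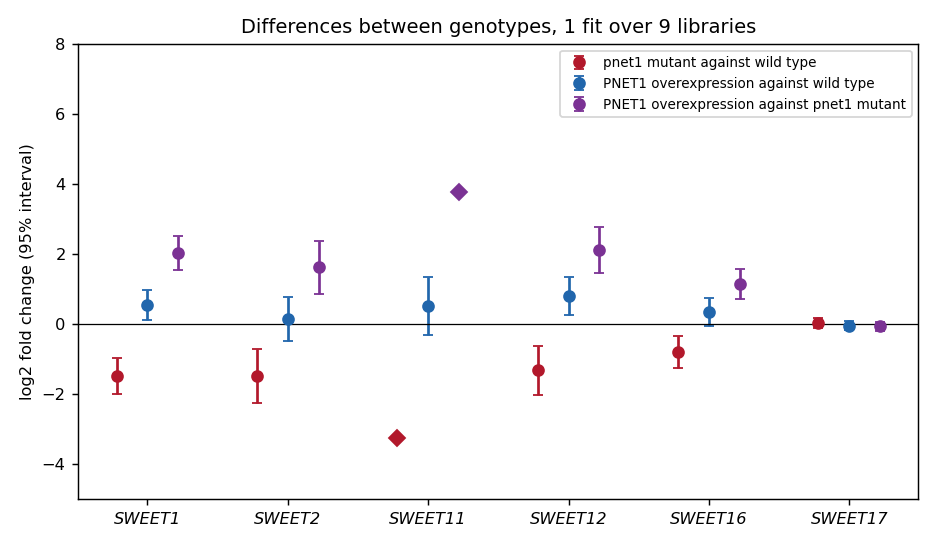
Log2 fold change of the 6 tested SWEET genes in the 3 comparisons, points with 95% intervals from 1 edgeR fit over 9 libraries. The intervals for mutant against wild type of SWEET1, SWEET2, SWEET12 and SWEET16 lie below 0, those of SWEET17 span 0 in all 3 comparisons, and SWEET11 has points without intervals (diamonds) where the mutant is compared. SWEET2 and SWEET12 entered the test through the genotypes in which they are high.

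The other 4 of the 10 genes had too few counts to test. SWEET15, known from senescing leaves, had 29 counts over the 9 libraries and at most 6 in one library. Its summed counts were 8 in wild type (exact Poisson 95% interval 3.45 to 15.8), 6 in the mutant (2.2 to 13.1) and 15 in the overexpression line (8.4 to 24.7), and these intervals overlap each other. SWEET4 had 11 counts in wild type (5.49 to 19.7), 2 in the mutant (0.242 to 7.22) and 7 in the overexpression line (2.81 to 14.4), again with overlap. SWEET13 had 8, 6 and 5 counts in the same order, and SWEET10 had 1, 0 and 0. These intervals cover counting error only and no test between genotypes was run on these 4 genes; overlap of the intervals does not show that levels were equal. In each library 3 counts correspond to 0.156 to 0.179 CPM. Among the 7 other SWEET genes, SWEET8, known from pollen development, had 5 counts in all, and SWEET3, SWEET6, SWEET9 and SWEET14 had 0 in the 9 libraries.

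**Figure D4:**
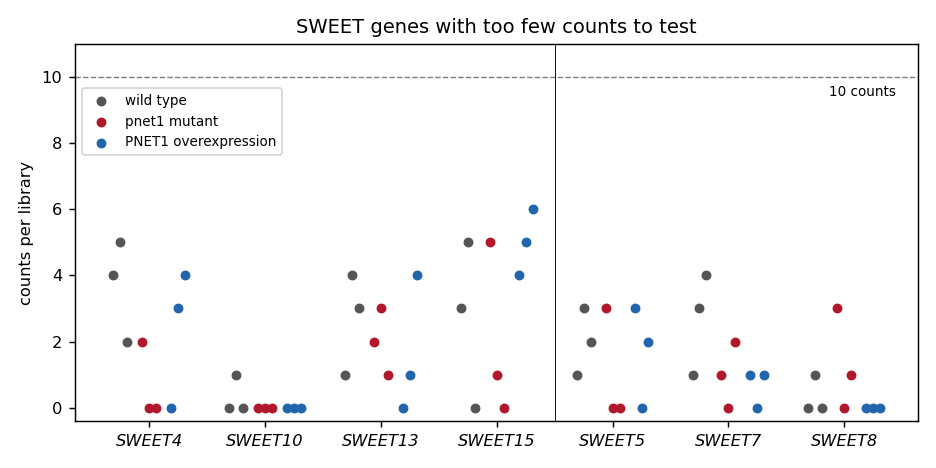
Counts per library of the 4 SWEET genes of the 10 that could not be tested (left of the line) and of 3 other SWEET genes with any count (right), 3 points per genotype. All points lie at 6 counts or below, under the dashed line at 10 counts, the count minimum of the filter.

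Genes next to the tested SWEET genes were read in the same fit, since the strand setting of the counting is not given and short gaps can let reads run from one gene into the next. AT3G14760 lies 27 bases from SWEET2 on the opposite strand and stood at 1.136 CPM in wild-type and 0.3433 in mutant callus. AT3G16680 lies 38 bases from SWEET16 on the opposite strand and stood at 0.5689 and 0.1357 CPM. Both neighbours had under 10 counts in each mutant library and entered the fit through the other genotypes, so they are given by level only. Both levels were lower in the mutant and below that of the SWEET gene beside them, and their part in the SWEET values was not tested. GSA2, an enzyme of chlorophyll precursor synthesis, lies 687 bases from SWEET11; it stood at 77.06 CPM in wild-type and 46.46 in mutant callus and fell by 0.73 as a log2 change (SE 0.13, edgeR adjusted p = 0.00365). The 2 genes next to SWEET12 had no counts in wild type or the mutant. FAHD2, on the other side of SWEET16, was higher in the mutant than in wild type by 0.48 as a log2 change (edgeR adjusted p = 0.00303). Next to SWEET17, ATDI21 was lower by 0.25 (edgeR adjusted p = 0.0026) and AT4G15930 higher by 0.23 (edgeR adjusted p = 0.00159).

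For each tested SWEET gene whose genotype means differed at least 2-fold, the 3 genes with the most similar pattern were taken from 18492 genes with a mean of at least 1 CPM, by the root-mean-square difference of log2 CPM, each centred on its own mean, over the 9 libraries. For SWEET1 these were CYP71B5 (0.121), GATA21 (0.126) and AT1G62780 (0.133), against a median of 0.892 over all genes. GATA21 is a transcription factor known from chloroplast development and stood at 7.4, 2.84 and 10.6 CPM in wild type, mutant and overexpression line. For SWEET2 they were PPT2 (0.227), a plastid phosphoenolpyruvate carrier, AGP26 (0.26) and AT4G12900 (0.271), against 0.929. For SWEET12 they were YAB5 (0.179), a leaf polarity factor, AT5G41050 (0.225) and AT4G17680 (0.233), against 0.909. For SWEET16 they were LHCB3 (0.0811), a light-harvesting protein, EAAC (0.0838) and AT4G30470 (0.0848), against 0.511. For SWEET11 they were AT1G23110 (0.437), BCA1 (0.546), a carbonic anhydrase, and AT5G38940 (0.575), against 1.68. These are descriptions over 9 libraries that fall into 3 genotypes.

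Other genes of sugar transport and metabolism were read from lists chosen with earlier results of these data known, so their counts are descriptions, to be read beside the 12.6% of all tested genes called higher and the 17.4% called lower in the mutant. Over all tested genes the median log2 difference between mutant and wild type was 4e-04, and over the 6 SWEET genes that passed the filter, SWEET11 included, it was -1.40, which is given as a description only. Among sucrose-proton symporters, which take sucrose into cells, 6 of 9 genes were tested, 5 were called higher in the mutant (12.6% over all genes) and 0 lower (17.4%), with a median of 0.40. SUC2, the main phloem-loading symporter, rose by 0.40 from 70.73 to 93.17 CPM (edgeR adjusted p = 0.000582), SUC1 rose by 0.40 from 557.3 to 734.1 CPM (edgeR adjusted p = 2.51e-05) and SUC6 rose by 1.14 from 1.298 to 2.809 CPM (edgeR adjusted p = 0.0225). The libraries of SUC6 overlapped, as wild-type replicate 2 stood at 2.154 CPM and mutant replicate 2 at 1.888. SUC2 is named outside the rule for named genes, after its values were seen. The 5 called symporters were higher in the mutant, where SWEET1, SWEET2, SWEET12 and SWEET16 were lower. SUC3 and SWEET17 were not called, and the lists were not tested against each other.

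Among hexose-proton symporters 9 of 14 genes were tested, 5 were called lower (17.4% over all genes) and 1 higher (12.6%), with a median of -0.45. STP3 fell by 1.52 from 11.23 to 3.89 CPM (edgeR adjusted p = 0.00175). STP14, with 8 counts in its lowest mutant library, fell by 1.24 from 1.488 to 0.6226 CPM (edgeR adjusted p = 0.00798). That p-value carries the limit given for SWEET2, as STP14 entered the test through the genotypes in which it is high. STP5, the other of the 3 largest falls, stood at 0.7342 CPM in wild-type and 0.09632 in mutant libraries, where it had 1 to 3 counts per library, and it entered the test through the other genotypes, so no p is given. STP5 and STP14 are both among the 5 called lower. STP13, which takes up hexoses under stress, rose by 0.23 (edgeR adjusted p = 0.0125). Of 9 other sugar carriers linked to the tonoplast, all tested, 3 were called lower and 1 higher, with a median of -0.15. TST1, which loads sugar into the vacuole, fell by 0.44 (edgeR adjusted p = 0.000224) and ESL1, a hexose facilitator of the tonoplast, rose by 0.50 (edgeR adjusted p = 7.42e-05). Of the polyol and inositol carriers 3 of 6 were tested and 2 were called higher, INT4 by 0.34 and PMT5 by 0.15.

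Enzymes of sucrose metabolism were read beside the same shares over all genes, 17.4% lower and 12.6% higher. Of 7 tested invertases, which split sucrose into glucose and fructose, 3 were called lower and 0 higher, with a median of -0.31; VINV1 of the vacuole fell by 0.94 from 19.86 to 10.39 CPM (edgeR adjusted p = 5.71e-06) and CWINV3 fell by 0.94 from 12.95 to 6.773 CPM (edgeR adjusted p = 2e-04). Of 6 sucrose synthases, which cleave sucrose with UDP, 4 were called higher and 0 lower, with a median of 0.36; SUS6 rose by 0.91 and SUS5 by 0.89. Of 4 sucrose-phosphate synthases, which make sucrose, 2 were called lower and 0 higher; SPSA1 fell by 1.58 from 34.33 to 11.45 CPM (edgeR adjusted p = 0.00336).

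Cell type markers were read in the same comparison, beside the same shares over all genes. Of the photosynthetic leaf markers 9 of 10 were tested and 9 were called lower in the mutant, with a median of -0.97; LHB1B2 was listed at 0. Their summed level was 2225 to 2856 CPM in wild type, 1228 to 1259 in mutant and 2772 to 3905 in overexpression libraries. Of the sieve element and companion cell markers 13 of 15 were called higher in the mutant and 0 lower, with a median of 0.63; their summed level was 1194 to 1387 CPM in wild type, 1896 to 1970 in mutant and 1060 to 1264 in overexpression libraries. SEOR1, a protein of sieve element filaments, rose by 0.79 from 113 to 195.1 CPM (edgeR adjusted p = 0.000857). Of the leaf senescence markers 3 of 6 tested were called higher and 0 lower, and SAG12 was listed at 0. Of the floral transition markers, FT rose by 0.84 (edgeR adjusted p = 0.0259) among 3 tested, and FUL, with few mutant counts, stood at 0.7989 CPM in wild-type and 0.2896 in mutant libraries. The part of these cell types in the SWEET values was not tested.

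In the overexpression line against wild type, where 5.24% of all tested genes were called lower and 5.97% higher, the same lists were read. Among hexose-proton symporters 1 was called lower, STP13 by 0.39 (edgeR adjusted p = 0.00266), and among sucrose synthases 2 were called lower, SUS3 by 0.30 and SUS1 by 0.15. PMT6 fell by 0.29 (edgeR adjusted p = 0.003). Of the sucrose-proton symporters, tonoplast carriers, invertases, sucrose-phosphate synthases and floral markers, edgeR, DESeq2 and limma-voom each called 0 in either direction, with 1, 1, 3, 2 and 0 genes at an unadjusted edgeR p under 0.05. The 9 tested photosynthetic markers had a median of 0.36 and the 6 SWEET genes a median of 0.42, against -0.0016 over all tested genes. EdgeR and limma-voom called 0 of those photosynthetic markers, DESeq2 called 4 higher, and 6 had an unadjusted edgeR p under 0.05. The sieve element and companion cell markers had 1 called higher, PP2-A1, and 2 called lower, SMXL5 and OPS, and the senescence markers 2 higher and 1 lower.

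Between the overexpression line and the mutant, where 20.6% of all tested genes were called lower and 23.0% higher, 5 sucrose-proton symporters were called lower in the overexpression line and 0 higher, 6 hexose-proton symporters higher and 1 lower, and 5 sucrose synthases lower and 0 higher. Those 6 hexose-proton symporters include STP5 and STP14, with the limit that both entered the test through the genotypes in which they are high. Of the invertases 4 were called higher and 1 lower, and of the tonoplast carriers 3 higher and 1 lower. VINV1 rose by 1.14 (edgeR adjusted p = 9.72e-08), SUC1 fell by 0.52 (edgeR adjusted p = 3.86e-07) and STP3 rose by 2.12 (edgeR adjusted p = 7.73e-05). The 9 tested photosynthetic markers were all called higher and 13 of 15 sieve element and companion cell markers lower.

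**Figure D5:**
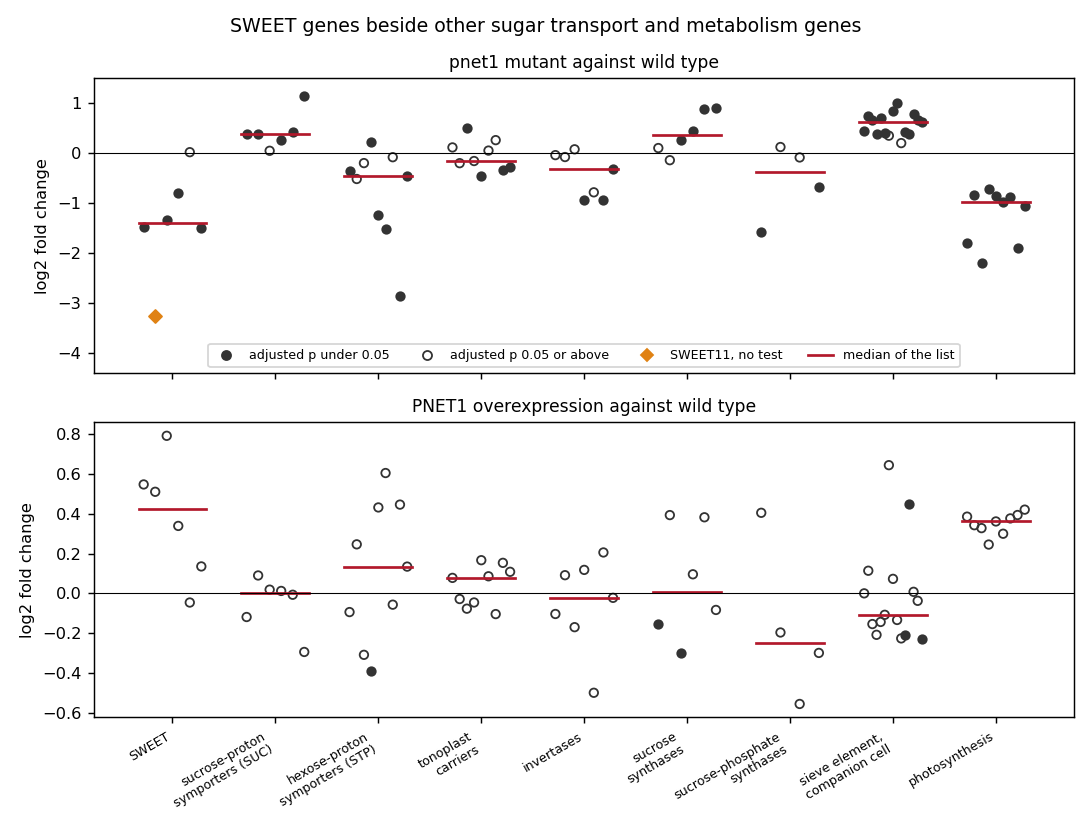
Log2 fold change of each tested gene by list, in the mutant (top) and the overexpression line (bottom) against wild type; filled points were called by edgeR at an adjusted p under 0.05, open points were not, and SWEET11 has no test in the mutant. In the top panel SWEET genes and photosynthesis genes lie mostly below 0 and sucrose-proton symporters and phloem markers above it. Filled points there include SWEET2, SWEET12, STP5 and STP14, which entered the test through the genotypes in which they are high.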

How the data were processed

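Messenger RNA of 9 callus libraries, 3 per genotype, was analysed. One deposited table has the authors' raw read count of each gene; the submitters' processing notes list TAIR10, HTSeq (0.6.1p1) and HISAT2 (2.0.4), while strand setting and annotation release are not stated in the sources used here. The deposited FPKM values, also the authors', were tested to be proportional, within each library, to the count over the gene length.

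Counts were fitted with edgeR version 4.0.16 (R version 4.3.3; robust quasi-likelihood, TMM scaling, filterByExpr with a minimum count of 10 and a minimum total of 15), with 1 mean per genotype over all 9 libraries, and p-values were adjusted by Benjamini-Hochberg over 19698 tested genes. Of the 32833 genes 7236 had no count. SE is implied by the F statistic, and intervals are at 95%. Sequences came from RefSeq assembly TAIR10.1. The steps were tested on simulated counts.

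The SWEET genes and the lists were chosen with earlier results of these data known. Named genes were PNET1, the SWEET genes and their chromosomal neighbours, up to 3 called genes with the largest change per list and comparison (or, with fewer than 2 called, up to 2 of the highest level), and the 3 genes nearest in pattern. Alternatives were other scaling (RLE, upper quartile, totals), DESeq2 version 1.42.0, limma-voom (limma version 3.58.1), other filters, an offset for GC content and length, only the 2 genotypes compared, a replicate block, and each library left out. PNET1 was matched to AT1G07970 from background knowledge.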

Additional observations from a re-analysis of the deposited data

How the results depend on the processing

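Over 19 alternatives per comparison, the number of SWEET genes called other than SWEET11 was 4 for mutant against wild type and 4 for overexpression against mutant in each. Of all genes, 4552 to 6274 and 7342 to 8655 were called in either direction in these comparisons. Nothing is read from the SWEET counts, given the choice of the genes and the filter. For overexpression against wild type, where edgeR called 0 of 6, DESeq2 called 1 (SWEET1, adjusted p = 0.0124), edgeR with no filter beyond 1 count called 1 (SWEET12, adjusted p = 0.0424), and leaving out 1 library gave 0 to 3. The cause of these changes was not tested. Adjusted p for SWEET12 ran from 0.00789 to 0.234 and for SWEET1 from 0.00878 to 0.293 over the alternatives. Of the log2 differences of single SWEET genes 332 kept their direction and side of the threshold, 6 passed it, and 4, all of SWEET17 near 0, changed sign. The 332 include SWEET11 in comparisons with the mutant, which are description only, so nothing is read from that number. For SWEET17 against wild type the mutant value was -0.0125 without wild-type replicate 2 and -0.0074 without mutant replicate 1. Its overexpression value was 0.0202 without wild-type replicate 1 and 0.0125 without overexpression replicate 3. Leaving out 1 library gave -0.0125 to 0.0916 and -0.0844 to 0.0202 in these comparisons.

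Over all genes, overexpression against wild type had 2208 calls, and from 737 to 3125 over the alternatives. Among the lower counts were 1430 with only the 2 genotypes compared and 737 without wild-type replicate 3. Leaving out overexpression replicate 2 gave 1111 and leaving out overexpression replicate 3 gave 944. Same-numbered libraries had deviations that correlated between -0.176 and 0.0768 over 9 pairs, so the numbers were not taken as pairing. With the replicate block 4, 0 and 4 SWEET genes were called in the 3 comparisons, as without it. Depth limits SWEET11 in the mutant and the 4 SWEET genes that could not be tested.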
